A study of Saccharomyces cerevisiae with 18 samples.

Results

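The genes described are 10 that *Saccharomyces cerevisiae* uses to live on acetate, lactate and other compounds with short carbon chains: *JEN1*, *ADY2*, *ACS1*, *ICL1*, *MLS1*, *CIT2*, *MDH2*, *SFC1*, *PCK1* and *FBP1*. They were chosen by name, as the probe sets whose platform gene symbol is one of these, and each matched 1 probe set, so that they make up 10 of the 5424 yeast probe sets tested. All 10 were above background on every one of 18 Affymetrix Yeast Genome 2.0 arrays. Per the labels, all strains are of the Sigma1278b background. KV473 and KV63 are labelled as deleted for *FLO11*, which encodes a cell-surface adhesin, and KV2668 and KV68 as wild type. Colonies of the 4 strains were kept for 5 days at 30°C on solid YPS (yeast extract, peptone and sucrose). KV473 and KV2668 were grown in liquid medium as well, which gives 6 groups of 3 arrays. For the liquid cultures the labels give the colony protocol again, so that their growth time is uncertain. The study set these groups side by side to ask which genes change with *FLO11* in colonies and in liquid.

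When glucose and other fermentable sugars run out, yeast turns to the ethanol, acetate and lactate around it. Lactate and acetate enter through plasma membrane carriers, acetate is activated to acetyl-CoA, and the glyoxylate cycle joins acetyl-CoA units into malate and succinate without losing carbon as CO2. Oxaloacetate made from these feeds gluconeogenesis, which runs glycolysis backwards through enzymes of its own. In glucose most genes of these routes are shut off, through Mig1 and related repressors, and some of their enzymes are degraded, in part through the GID ubiquitin ligase. Without glucose the Snf1 kinase and the activators Cat8, Sip4 and Adr1 turn such genes on, while *CIT2* answers to the retrograde pathway.

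The level of *FLO11* went against the labels. On the log2 scale of the deposited RMA values, *FLO11* was at 13.24 ± 0.07 (SD, n = 3) in liquid and 12.94 ± 0.17 on solid medium in KV473 and at 13.06 ± 0.10 in KV63, the strains labelled flo11. It was at 5.32 ± 0.06 and 5.11 ± 0.33 in KV2668 and at 4.85 ± 0.26 in KV68, the strains labelled wild type, where the background of the arrays lay between 4.34 and 4.56. Strains are therefore called by their names, and every difference between strains is the one labelled wild type minus the one labelled flo11. KV68 solid replicate 3 stood apart from the others, with correlations of 0.909 to 0.917 with the other KV68 arrays, where the other replicate pairs reached 0.993 to 0.999. Its mean over 7 a-specific genes was 9.22 and that over 5 alpha-specific genes 9.05, against 6.64 and 6.52 and against 12.52 and 12.61 on the other KV68 arrays. KV2668 had a-specific means of 9.52 to 10.39 and alpha-specific means of 6.80 to 7.86, and KV473 had 6.11 to 7.92 and 11.52 to 12.44. Genes of chromosome XII were also higher in KV2668, with a median difference from KV473 of 0.81 on solid and 0.87 in liquid medium over 462 probe sets. The *FLO11* level, the mating type and this shift therefore cannot be told apart between KV2668 and KV473. KV63 had a-specific means of 6.85 to 7.94 and alpha-specific means of 12.29 to 12.46, near those of KV68 solid replicates 1 and 2. Nothing in the labels says whether the 3 arrays of a group came from separate cultures, so that p-values measure the spread between these arrays, which may be technical. The RNA came from whole colonies or cultures, in which fewer cells that use a gene and less RNA of it per cell cannot be told apart.

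The medium was the factor that went with the widest differences among the 10 genes. In KV473, 7 of 10 were lower on solid than in liquid medium at an adjusted p under 0.05 (limma, Benjamini-Hochberg over all tested probe sets), 1 was higher and 2 did not pass, and in KV2668, 9 were lower and 1 was higher. Over all tested probe sets, 49.2% were lower and 32% higher in KV473 by the same rule, and 45.9% were lower and 34.4% higher in KV2668, so that most of the transcriptome passed. With the added limit of a log2 difference over 1, a 2-fold change, 2 members were called lower in KV473 and 3 in KV2668, beside 6.67% and 6.95% of all probe sets. In KV2668 these were *SFC1*, *MLS1* and *FBP1*, and without KV2668 solid replicate 1 only *SFC1* was called, with *MLS1* at −0.98 and *FBP1* at −0.94. No member was called higher, against 11.2% and 10.7%. The median difference of the members was −0.57 in KV473 and −0.75 in KV2668, and that of all probe sets was −0.16 and −0.10. The media did not overlap for 8 of 10 members in KV473, where 82.5% of all probe sets did not overlap, and for 10 of 10 in KV2668, against 82.2%.

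**Figure D1:**
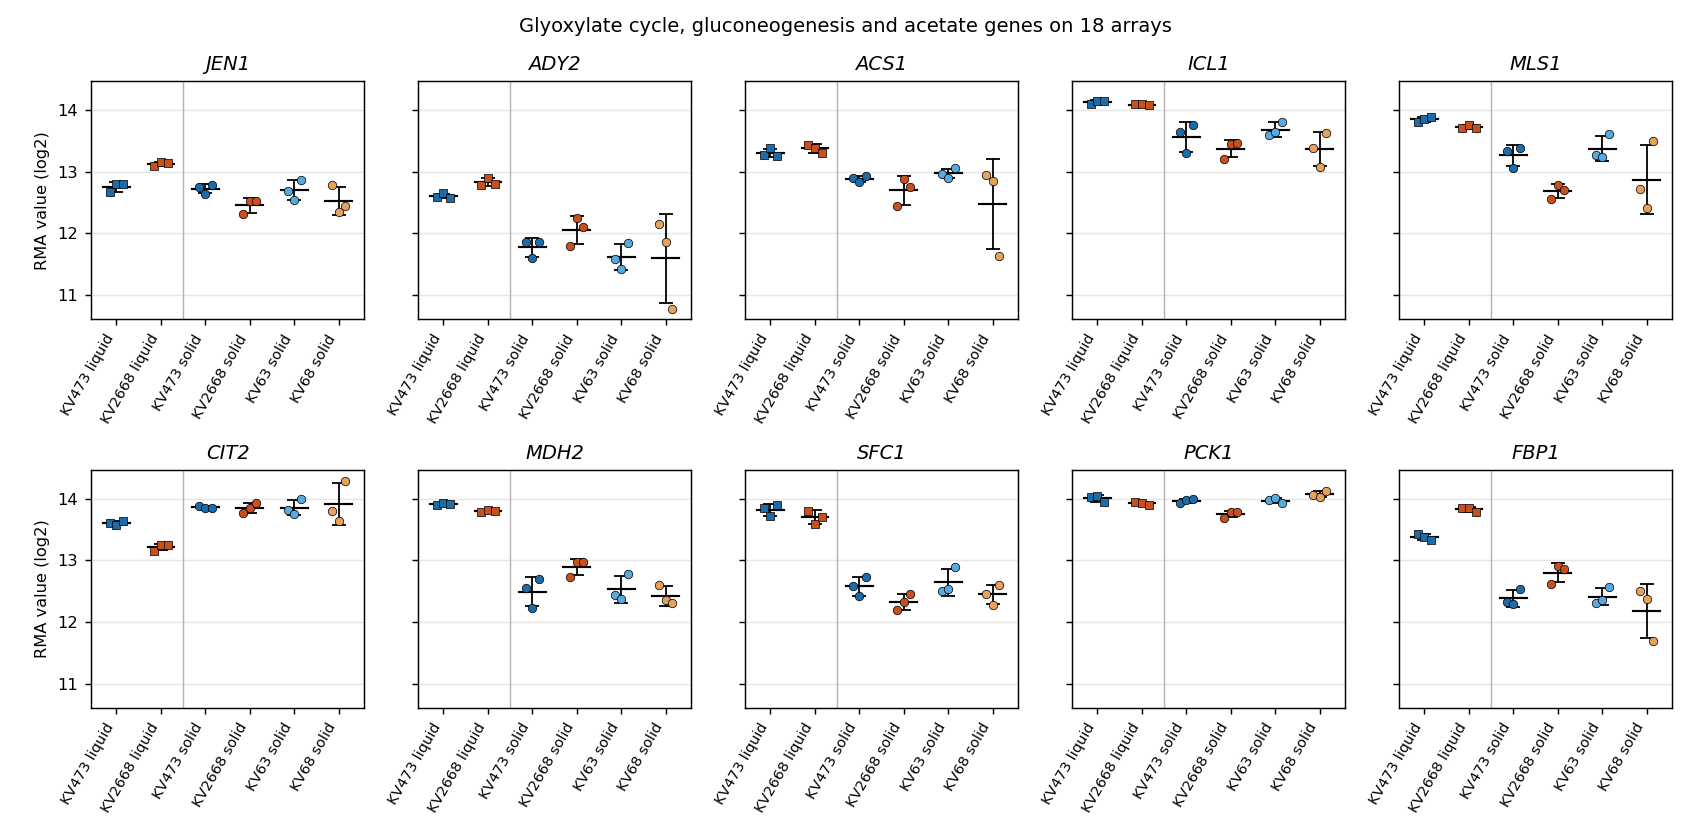
Deposited log2 RMA values of the 10 genes on all 18 arrays, with squares for liquid and circles for solid medium, and with the mean and SD of each group of 3 arrays as bars. *MDH2*, *SFC1* and *FBP1* stand well above all solid arrays in liquid medium, *CIT2* stands lower in liquid medium, and KV68 solid shows 1 array far from the other two for *ACS1* and *ADY2*.

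Among the carriers of the plasma membrane, Ady2, which brings in acetate, and Jen1, which brings in lactate and pyruvate, had different patterns. *ADY2* was at 12.59, 12.65 and 12.57 in liquid and at 11.86, 11.60 and 11.86 on solid medium in KV473, a fall of 1.78-fold (log2 difference −0.83, SE 0.10, adjusted p = 3.84e-06). In KV2668 it was at 12.79, 12.90 and 12.80 in liquid and at 11.80, 12.24 and 12.11 on solid medium, a log2 difference of −0.78 (adjusted p = 7.29e-06). Every liquid array was above every solid array in both strains. *JEN1* in KV473 was at 12.66, 12.81 and 12.79 in liquid and at 12.75, 12.64 and 12.78 on solid medium, with a difference of −0.03 and a 95% interval of −0.18 to 0.12. In KV2668 *JEN1* was at 13.09, 13.15 and 13.14 in liquid and at 12.32, 12.52 and 12.52 on solid medium, 1.60-fold lower (log2 difference −0.67, SE 0.07, adjusted p = 7.88e-07). The solid and liquid arrays of KV473 overlapped for *JEN1* and those of KV2668 did not. The test of the difference between the strains passed for *JEN1*, with an interaction of −0.64 (SE 0.10, adjusted p = 0.000138), and this was the widest interaction among the 10 genes. The interaction, the strain difference on solid medium less that in liquid medium, passed upwards for 2 members and downwards for 2, beside 24.8% and 27% of all probe sets, and none was called, beside 4.22% and 2.93%. The interaction also passed for *ICL1* without KV473 solid replicate 2 (−0.28, adjusted p = 0.0354) and for *ACS1* without KV2668 solid replicate 2 (−0.36, adjusted p = 0.0248).

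*ACS1* encodes the acetyl-CoA synthetase that yeast uses in the absence of glucose. Its level was 13.28, 13.39 and 13.26 in liquid and 12.90, 12.83 and 12.93 on solid medium in KV473, a fall of 1.34-fold (log2 difference −0.42, SE 0.09, adjusted p = 0.00083). In KV2668 it was 13.44, 13.38 and 13.31 in liquid and 12.44, 12.89 and 12.75 on solid medium, a fall of 1.60-fold (log2 difference −0.68, adjusted p = 1.17e-05). Its paralog *ACS2*, which serves growth on glucose, was also lower on solid medium, by −0.40 in KV473 (adjusted p = 0.000602) and −0.52 in KV2668 (adjusted p = 6.44e-05). In the fit over all 18 arrays, whose spread takes in KV68 solid replicate 3, the change of *ACS1* in KV473 no longer passed (adjusted p = 0.122).

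The enzymes particular to the glyoxylate cycle, isocitrate lyase and malate synthase, were both lower on solid medium. *ICL1*, the lyase, was at 14.10, 14.14 and 14.15 in liquid and at 13.64, 13.30 and 13.76 on solid medium in KV473 (log2 difference −0.56, SE 0.10, adjusted p = 0.000142). In KV2668 it was at 14.09, 14.09 and 14.07 in liquid and at 13.21, 13.45 and 13.46 on solid medium (log2 difference −0.71, adjusted p = 1.67e-05). The 3 liquid arrays of KV2668 agreed within an SD of 0.01, where the solid arrays of KV473 had an SD of 0.24. *MLS1*, the synthase, was at 13.81, 13.85 and 13.88 in liquid and at 13.34, 13.07 and 13.39 on solid medium in KV473 (log2 difference −0.58, adjusted p = 1.56e-05). In KV2668 *MLS1* was at 13.72, 13.75 and 13.70 in liquid and at 12.56, 12.78 and 12.71 on solid medium, 2.06-fold lower (log2 difference −1.04, SE 0.08, adjusted p = 4.5e-08). The fall of *MLS1* was wider in KV2668 than in KV473, with an interaction of −0.46 (SE 0.12, adjusted p = 0.00465) that did not pass in the fit of all 18 arrays (adjusted p = 0.218).

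*CIT2*, the peroxisomal citrate synthase that the retrograde pathway turns on when mitochondria fail, was the 1 member that rose on solid medium. It was at 13.60, 13.57 and 13.64 in liquid and at 13.89, 13.85 and 13.85 on solid medium in KV473, a log2 difference of 0.26 (SE 0.06, adjusted p = 0.000971). In KV2668 it was at 13.16, 13.25 and 13.24 in liquid and at 13.76, 13.85 and 13.92 on solid medium, 1.54-fold higher (log2 difference 0.63, adjusted p = 2.3e-07). The 4 solid groups had means of 13.84 to 13.91 and neighbouring groups among them overlapped, so that the interaction of 0.37 (adjusted p = 0.00201) came with a lower liquid level in KV2668. In the fit of all 18 arrays neither this interaction (adjusted p = 0.113) nor the rise in KV473 (adjusted p = 0.0688) passed. The mitochondrial citrate synthase *CIT1* had differences of −0.08 (adjusted p = 0.168) and −0.11 (adjusted p = 0.0764). Another mitochondrial paralog, *CIT3*, rose by 0.74 in KV473 (adjusted p = 2.69e-05) and by 1.43 in KV2668 (adjusted p = 3.96e-08). Among 7 regulators of the retrograde pathway, 1 was called higher in each strain, beside 11.2% and 10.7% of all probe sets. That count is no result about the list. Its median difference was −0.08 in KV473 and −0.02 in KV2668, beside −0.16 and −0.10 for all probe sets. The gene called was *RTG1*, a subunit of the transcription factor that acts on *CIT2*. *RTG1* rose by 1.45 in KV473 (adjusted p = 9.99e-08) and by 2.03 in KV2668 (adjusted p = 3.28e-09).

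In KV473 the widest falls were those of *MDH2* and *SFC1*, and in KV2668 that of *SFC1*. *MDH2* encodes the cytosolic malate dehydrogenase, which gives the oxaloacetate for gluconeogenesis and takes part in the glyoxylate cycle. It was at 13.90, 13.93 and 13.92 in liquid and at 12.55, 12.23 and 12.70 on solid medium in KV473, 2.68-fold lower (log2 difference −1.42, SE 0.10, adjusted p = 1.49e-08). In KV2668 it was at 13.78, 13.82 and 13.80 in liquid and at 12.74, 12.97 and 12.97 on solid medium, 1.88-fold lower (log2 difference −0.91, adjusted p = 1.36e-06). Here the fall was smaller in KV2668, with an interaction of 0.51 (SE 0.14, adjusted p = 0.00774), the opposite direction from that of *MLS1*. The mitochondrial paralog *MDH1* had a difference of −0.02 in KV473 (adjusted p = 0.682) and fell by 0.22 in KV2668, and the peroxisomal *MDH3* fell by 0.20 and 0.33. *SFC1*, the mitochondrial carrier that exchanges succinate for fumarate, was at 13.84, 13.71 and 13.90 in liquid and at 12.58, 12.42 and 12.73 on solid medium in KV473, 2.37-fold lower (log2 difference −1.24, SE 0.09, adjusted p = 2.56e-08). In KV2668 *SFC1* was at 13.81, 13.60 and 13.70 in liquid and at 12.19, 12.33 and 12.45 on solid medium, 2.60-fold lower (log2 difference −1.38, adjusted p = 8.73e-09). For both genes each liquid array was above every solid array of all 4 strains.

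The enzymes that open and close gluconeogenesis had unlike patterns. Fructose-1,6-bisphosphatase, encoded by *FBP1*, removes the phosphate at the last step particular to the pathway. It was at 13.43, 13.38 and 13.33 in liquid and at 12.33, 12.29 and 12.54 on solid medium in KV473, 1.99-fold lower (log2 difference −0.99, SE 0.08, adjusted p = 8.36e-08). In KV2668 *FBP1* was at 13.85, 13.85 and 13.78 in liquid and at 12.62, 12.91 and 12.87 on solid medium, 2.04-fold lower (log2 difference −1.03, adjusted p = 5.59e-08). These values lie just inside and just outside the 2-fold limit, so that the call of *FBP1* in 1 strain only is no difference between strains. Phosphoenolpyruvate carboxykinase, encoded by *PCK1*, makes the first step from oxaloacetate, and in KV473 its difference did not pass. *PCK1* was at 14.03, 14.05 and 13.94 in liquid and at 13.93, 13.98 and 13.99 on solid medium in KV473 (log2 difference −0.04, 95% interval −0.16 to 0.08). In KV2668 it was at 13.94, 13.93 and 13.91 in liquid and at 13.69, 13.78 and 13.79 on solid medium, a fall of 1.13-fold (log2 difference −0.17, adjusted p = 0.00966). This last fall was close to the median of all probe sets and did not pass when probe sets were quantile normalised again (−0.09, adjusted p = 0.106) or centred by chromosome (−0.09, adjusted p = 0.178).

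**Figure D2:**
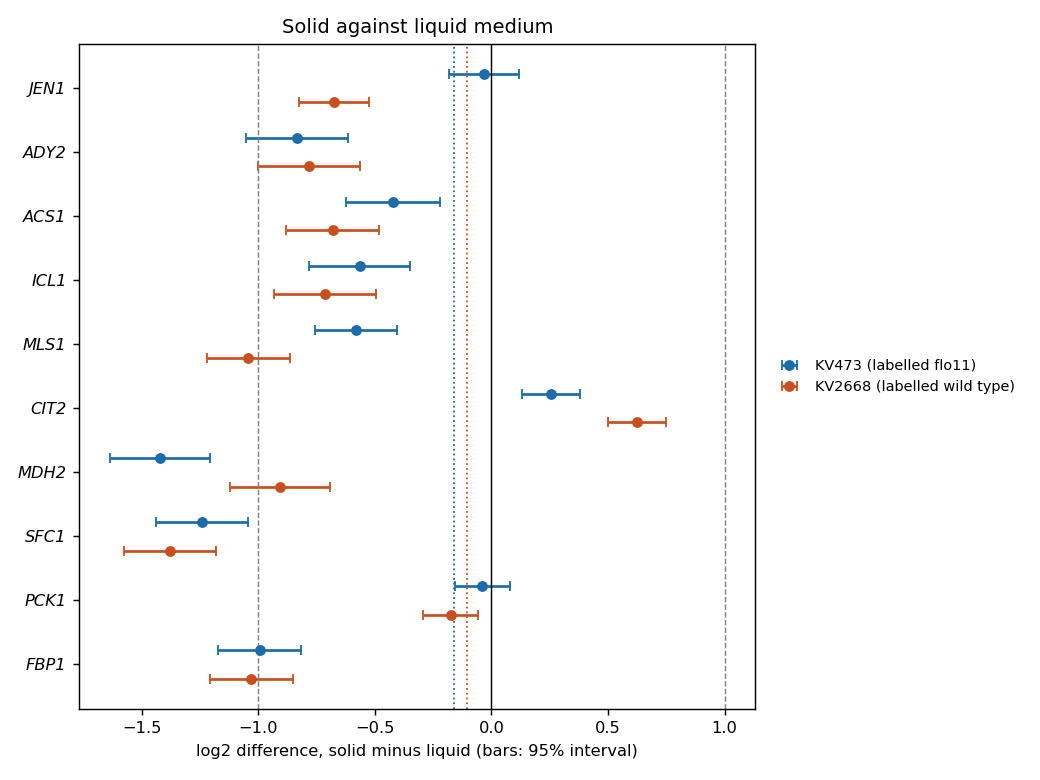
Log2 difference of each gene, solid minus liquid medium, in KV473 and KV2668, with 95% intervals from limma over 12 arrays. Dashed lines mark a log2 difference of 1 in either direction and dotted lines the median of all tested probe sets. *CIT2* lies to the right of 0 in both strains, *PCK1* lies near 0, and *SFC1* lies beyond −1 in both strains.

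The members lay near the top of the scale of the arrays. The highest value on an array was 14.47 to 14.84, and the highest value of *ICL1* came within 0.32 of the highest on its own array. For *CIT2*, *SFC1*, *MLS1*, *MDH2*, *FBP1* and *PCK1* this gap was 0.55 to 0.71, and for *ACS1*, *JEN1* and *ADY2* 1.09 to 1.63. Whether the signal of these probe sets was compressed at such levels was not tested. Over all 18 arrays *PCK1* ranged over 0.44 and *FBP1* and *ADY2* over 2.17 and 2.13. The spread between arrays was also unlike between the media. The median SD of the 10 genes was 0.04 in each of the liquid groups and 0.14, 0.13 and 0.15 in the solid groups of KV473, KV2668 and KV63. Colony arrays of 1 group moved together in these genes. KV2668 solid replicate 1 held the lowest value of its group for 10 of 10 genes, KV473 solid replicate 2 for 9, with *PCK1* as the exception, and KV63 solid replicate 3 held the highest value for 9, again without *PCK1*. The 10 genes therefore do not give 10 independent readings of a comparison.

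Between the strains that differ in *FLO11*, the 10 genes differed less. On solid medium no member was called in KV2668 minus KV473, while 4.35% of all probe sets were called higher and 1.79% lower. At an adjusted p under 0.05 alone (limma), 3 members were higher, 4 were lower and 3 did not pass, beside 29.9% and 30.2% of all probe sets, and 7 had an unadjusted p under 0.05. The groups did not overlap for 5 of 10 members, against 62.1% of all probe sets. In liquid medium no member was called, against 4.5% higher and 3.78% lower. There 2 members were higher and 1 lower at an adjusted p under 0.05, beside 28.6% and 24.3% of all probe sets, and 4 had an unadjusted p under 0.05. The groups did not overlap for 7 of 10, against 65.4%. A share of members near or under that of all probe sets is no result about the members, and the values of single genes follow.

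On solid medium *MLS1* had the widest difference and was lower in KV2668 than in KV473 (log2 difference −0.58, SE 0.08, adjusted p = 4.01e-05), and the highest KV2668 array, 12.78, was below the lowest KV473 array, 13.07. *JEN1* (−0.27, adjusted p = 0.00457), *SFC1* (−0.26, adjusted p = 0.0275) and *PCK1* (−0.21, adjusted p = 0.00408) were lower as well. *MDH2* (0.40, adjusted p = 0.00369) and *ADY2* (0.28, adjusted p = 0.0301) were higher. *ICL1* (−0.19, 95% interval −0.41 to 0.02), *ACS1* (−0.19, −0.39 to 0.01) and *CIT2* (−0.02, −0.14 to 0.11) did not pass. Within the glyoxylate cycle the genes thus went in both directions, with *MLS1* lower and *MDH2* higher in KV2668. *ADY2* and *SFC1* passed only with some arrays kept. Leaving out KV473 solid replicate 2 or KV2668 solid replicate 2 or 3 gave 0.18 to 0.25 for *ADY2* (adjusted p = 0.0926 to 0.146), and leaving out KV473 solid replicate 1 or 3 or KV2668 solid replicate 1 or 2 gave −0.26 to −0.18 for *SFC1* (adjusted p = 0.0553 to 0.127). In the fit of all 18 arrays *JEN1* (adjusted p = 0.053), *SFC1* (0.0951) and *ADY2* (0.387) did not pass. *ICL1* passed without KV473 solid replicate 2 (−0.33, adjusted p = 0.00288) and *ACS1* without KV2668 solid replicate 2 (−0.29, adjusted p = 0.0145). In liquid medium *JEN1* was 1.29-fold higher in KV2668 (log2 difference 0.37, adjusted p = 0.000477), the reverse of its order on solid medium, and *CIT2* was 1.31-fold lower (−0.39, adjusted p = 6.23e-05). The other 7 genes besides *JEN1*, *CIT2* and *FBP1* had differences of −0.12 to 0.23 in liquid medium, none of which passed. *ADY2* did pass there with array weights (0.23, adjusted p = 0.00854) and with chromosomes centred (0.30, adjusted p = 0.0191). The a-specific and alpha-specific levels given above moved with these differences, and their part in the results was not tested. The shift of chromosome XII moved with them too, and its part in the results of genes on other chromosomes was not tested.

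*FBP1* was higher in KV2668 on both media, by 0.41 on solid (SE 0.08, adjusted p = 0.000735) and by 0.45 in liquid medium (adjusted p = 0.000397). It lies on chromosome XII (YLR377C), the other members on other chromosomes, and the 462 probe sets of chromosome XII had a median difference of 0.81 on solid and 0.87 in liquid medium, where those of all other chromosomes had −0.04 and −0.003. Within its chromosome *FBP1* was at percentile 15.6 on solid and 21.6 in liquid medium. With each chromosome centred on each array its difference was negative, at −0.38 on solid (adjusted p = 0.0011) and −0.30 in liquid medium (adjusted p = 0.0057). *FBP1* was thus higher in KV2668 than in KV473 and lower against the other genes of chromosome XII. *ACS2*, on the same chromosome, was higher by 0.37 on solid and 0.49 in liquid medium. No other member that passed in these comparisons changed direction under this centring, but on solid medium *PCK1* (−0.11, adjusted p = 0.105), *JEN1* (−0.17, adjusted p = 0.0543) and *SFC1* (−0.19, adjusted p = 0.0914) no longer passed.

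In the second pair of strains, KV68 minus KV63 on solid medium, no member passed the test, against 10.6% of all probe sets in either direction, none was called, against 0.442%, and 2 had an unadjusted p under 0.05. The groups did not overlap for 1 of 10 genes, *PCK1*, against 24.4% of all probe sets. The differences ran from −0.50 for *MLS1* (95% interval −0.92 to −0.09) and −0.49 for *ACS1* to 0.10 for *PCK1*, and the spread within KV68 was wide, with an SD of 0.73 for *ACS1*, which was at 12.95 and 12.85 on KV68 replicates 1 and 2 and at 11.64 on replicate 3. *ADY2* was at 12.15, 11.85 and 10.78, *FBP1* at 12.50, 12.37 and 11.68, and *MLS1* at 12.72, 12.41 and 13.49 on the same arrays. On replicate 3 *ACS1*, *ADY2* and *FBP1* had their lowest value of all 18 arrays, and *CIT2*, at 14.30, and *PCK1*, at 14.13, their highest. Without this array, *MLS1* was 0.81 lower in KV68 (log2 difference −0.81, SE 0.12, adjusted p = 0.000583), *ICL1* was lower (−0.45, adjusted p = 0.0154) and *ADY2* higher (0.39, adjusted p = 0.0476), which makes 3 of 10 beside 21% of all probe sets. Without KV68 solid replicate 1, which left replicate 3 more weight, *ACS1* (−0.73, adjusted p = 0.0455) and *JEN1* (−0.30, adjusted p = 0.0433) passed instead. With array weights and all 18 arrays, *MLS1* (−0.60, adjusted p = 4.5e-05), *ICL1* (−0.28, adjusted p = 0.0125) and *ADY2* (0.54, adjusted p = 0.000703) passed. With the replicate number as a block in the fit of 18 arrays, 11 probe sets were called higher and 12 lower, against 12 and 12 without it. With the 6 arrays of these strains alone the calls were 0 and 2 without the block and 0 and 1 with it, and no member was called.

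**Figure D3:**
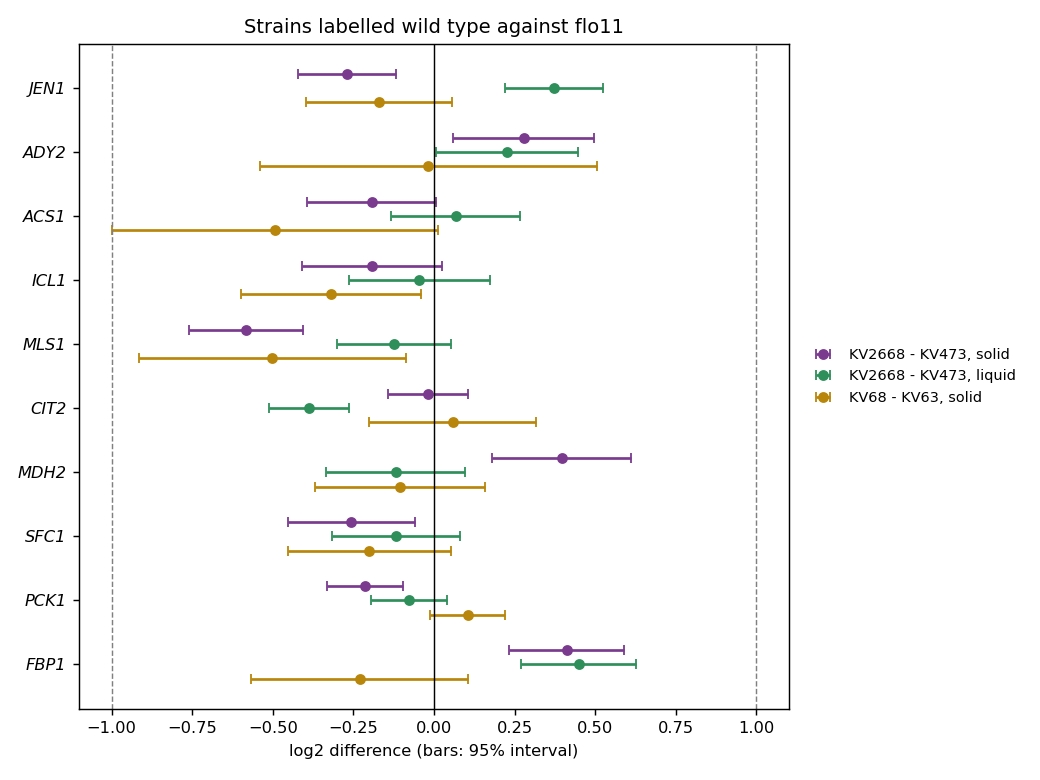
Log2 difference of each gene, strain labelled wild type minus strain labelled flo11, for KV2668 and KV473 on solid and in liquid medium and for KV68 and KV63 on solid medium, with 95% intervals. *MLS1* lies to the left of 0 on solid medium in both pairs, *FBP1* lies to the right of 0 in KV2668 alone, and *JEN1* lies on opposite sides of 0 in the 2 media.

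Strains that share a label were also compared on solid medium. Between KV63 and KV473, both with *FLO11* high, neither a member nor any other probe set passed (0%). The member differences were −0.16 to 0.12, and 80 probe sets of 5424 and no member had an unadjusted p under 0.05 (limma, 18 arrays). KV68 and KV2668, both with *FLO11* low, differed in 3 members, against 42.6% of all probe sets, and none was called, against 5.22%. Their a-specific and alpha-specific means, given above, were unlike as well, and chromosome XII had a median difference of −0.80. In KV68 *PCK1* was higher by 0.32 (adjusted p = 0.000251), *FBP1* was lower by a log2 difference of −0.62 (adjusted p = 0.00567) and *MDH2* lower by −0.47 (adjusted p = 0.00704). Without KV68 solid replicate 1, *ADY2* passed too (−0.73, adjusted p = 0.0187). Without KV68 solid replicate 3 the 3 differences were 0.30, −0.37 and −0.41 and all 3 still passed, against 56.3% of all probe sets. With the arrays of KV68 and KV2668 alone, *FBP1* (adjusted p = 0.12) and *MDH2* (adjusted p = 0.0519) did not pass, and with chromosomes centred *FBP1* was at 0.18 (adjusted p = 0.395). The same 3 genes had a strain difference that was unlike between the pairs, KV2668 minus KV473 less KV68 minus KV63. This was −0.32 for *PCK1* (adjusted p = 0.00735), 0.64 for *FBP1* (adjusted p = 0.047) and 0.50 for *MDH2* (adjusted p = 0.0476), and 14.5% and 11.1% of all probe sets passed upwards and downwards. These comparisons share arrays, so that they are not separate evidence. The difference between pairs did not pass for *FBP1* without any 1 of 7 arrays (0.56 to 0.70, adjusted p = 0.0573 to 0.108), namely each of KV63 and replicates 1 and 2 of KV473 and 2 and 3 of KV2668. It did not pass for *MDH2* without any 1 of 8 (0.37 to 0.54, adjusted p = 0.0506 to 0.119), namely replicates 1 and 3 of KV63, 1 and 2 of KV473, 2 and 3 of KV2668 and 2 and 3 of KV68. Both *FBP1* and *PCK1* lost the difference between pairs when chromosomes were centred (−0.16, adjusted p = 0.679, and −0.18, adjusted p = 0.136).

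Ordered by the mean of each group, the liquid groups held the first and second places for *ADY2*, *ACS1*, *ICL1*, *MLS1*, *MDH2*, *SFC1* and *FBP1*, and the gap to the highest solid group went without overlap for each. The widest such gap was 1.06, for *SFC1*, and the narrowest 0.34, for *ACS1*. Among the 4 solid groups neighbours in the order overlapped for all of these genes but *FBP1*, whose KV2668 level stood 0.39 above that of KV63 without overlap. For *MLS1* the overlap of KV68 with KV473 rested on KV68 solid replicate 3, at 13.49. The other KV68 arrays, at 12.72 and 12.41, and those of KV2668, at 12.56 to 12.78, lay below all solid arrays of KV473 and KV63. The lowest of these was at 13.07. For *CIT2* the order was turned around, with the liquid groups last. For *JEN1* only KV2668 in liquid stood apart from every other group, 0.37 above the next. KV2668 on solid medium, at 12.32 to 12.52 for *JEN1*, overlapped KV68 alone. For *PCK1* only KV2668 on solid medium stood apart from every other group, 0.17 below the next.

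Other genes of the same routes were taken from lists of textbook roles, chosen with earlier results of these data known. Of 39 tested enzymes and carriers of short-chain carbon use, 3 were called higher and 3 lower on solid medium in KV473, and 2 and 4 in KV2668. Over all probe sets 11.2% were called higher and 6.67% lower in KV473, and 10.7% and 6.95% in KV2668, so that these counts are no result about the list. Their median of −0.25 and −0.22 stood beside −0.16 and −0.10 for all probe sets. *ALD3*, a cytosolic aldehyde dehydrogenase that stress induces, rose by 2.55 in KV473 (adjusted p = 3.16e-12) and by 3.77 in KV2668 (adjusted p = 6.8e-14). *DIC1*, the mitochondrial dicarboxylate carrier, fell by 1.11 in KV473 (adjusted p = 6.57e-08) and fell by 1.67 in KV2668 (adjusted p = 1.1e-09). *IDP3*, the peroxisomal isocitrate dehydrogenase, rose by 1.45 in KV473 and by 0.19 in KV2668. *ATO3*, a relative of *ADY2*, fell by 1.62 and 1.66, and *ICL2*, a mitochondrial relative of *ICL1* that acts on methylisocitrate, fell by 1.33 and 1.35. *ATO2*, another relative of *ADY2*, instead rose by 0.21 and 0.24 on solid medium. In liquid medium it was 1.02 lower on the log2 scale in KV2668 than in KV473 (adjusted p = 2e-07). *ACH1*, which transfers CoA to acetate, was lower there too (log2 difference −1.06, adjusted p = 4.42e-08). *DAL7*, the paralog of *MLS1*, fell by 0.32 and 0.67, at a level of 7.43 to 8.28.

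Some regulators of these routes were called between KV2668 and KV473, where no member was. Of 22 regulators, 4 were called higher and 1 lower in KV2668 minus KV473 on solid medium, beside 4.35% and 1.79% of all probe sets. Those higher were *MIG1*, *MIG2* and *MIG3*, repressors of genes shut off in glucose, by 1.13, 1.37 and 1.31, and *HXK2*, the hexokinase that takes part in that repression, by 1.29. *NRG2*, a further repressor under Snf1, was 1.22 lower (log2 difference −1.22, adjusted p = 1.82e-07). In KV68 minus KV63 none of the 22 was called, beside 0.442% of all probe sets, which is no result about the list. The difference between the pairs was called for *MIG1* (1.16, adjusted p = 0.0366), *MIG2* (1.66, adjusted p = 0.00972) and *HXK2* (1.02, adjusted p = 0.00182) alone. Over all 5424 probe sets, 194 were called higher and 56 lower in it. In liquid medium the order was turned around for *MIG2* (−1.81) and *NRG2* (1.69), with interactions of 3.17 and −2.90 (adjusted p = 2.3e-06 and 2.4e-08). Between media 2 regulators were called higher on solid medium and 1 lower in KV473, beside 11.2% and 6.67% of all probe sets. In KV2668 these were 3 and 1, beside 10.7% and 6.95%, and such counts are no result about the list. *HXK2* fell by 2.27 on solid medium in KV473 and by 1.07 in KV2668, and *NRG1* rose by 1.43 and 1.72. *NRG2* rose by 2.64 in KV473 (adjusted p = 2.1e-11) and fell by 0.27 in KV2668, and *MIG2* rose by 2.59 in KV2668. *HAP4*, the activating subunit of the factor that turns on respiratory genes, rose by 0.61 in KV473 (adjusted p = 0.00015) and by 1.09 in KV2668 (adjusted p = 5.86e-07), where it was called. *CAT8*, *ADR1* and *SIP4* were not called and are named for their roles, as *MIG1* is, after their values were seen. *CAT8* rose on solid medium by 0.36 in KV473 (adjusted p = 0.0007) and by 0.59 in KV2668 (adjusted p = 8.46e-06). *ADR1* fell by 0.73 in KV473 (adjusted p = 5.37e-06), and in KV2668 its difference of 0.14 did not pass (adjusted p = 0.178), with an interaction of 0.87 (adjusted p = 0.000108). *SIP4* fell by 0.26 in KV473 (adjusted p = 0.0214), with a difference of −0.17 in KV2668 (adjusted p = 0.116).

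The GID ubiquitin ligase marks *FBP1*, *PCK1*, *ICL1* and *MDH2* products for degradation when glucose returns. Of 14 genes of this complex and of the vacuolar route, 11 were tested, and 4 were called higher on solid medium in KV473 and the same 4 in KV2668, while none was called lower, beside 11.2% and 10.7% of all probe sets higher and 6.67% and 6.95% lower. The median difference of the list was 0.75 and 0.55, beside −0.16 and −0.10 for all probe sets. This list too was chosen with earlier results of these data known, so that its counts and medians are descriptions. *VID24*, the substrate receptor, was at a mean of 9.81 in liquid and 12.01 on solid medium in KV473, a rise of 4.60-fold (log2 difference 2.20, SE 0.08, adjusted p = 2.1e-11), and rose by 1.93 in KV2668. *GID8*, a scaffold subunit, rose by 1.94 and 2.13. *FYV10* and *RMD5*, the RING subunits, rose by 1.53 and 1.36 and by 1.27 and 1.38. The interaction did not pass for any of these 4 genes. The number called was 4 in each strain with quantile normalisation, chromosome centring, a replicate block and array weights as well. On solid medium transcripts of these ligase subunits were higher and those of *FBP1*, *ICL1* and *MDH2* lower. *PCK1* did not pass in KV473, and its fall in KV2668 depended on the scaling. Whether the transcript levels of the ligase and of these genes are linked was not tested. No protein was measured.

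**Figure D4:**
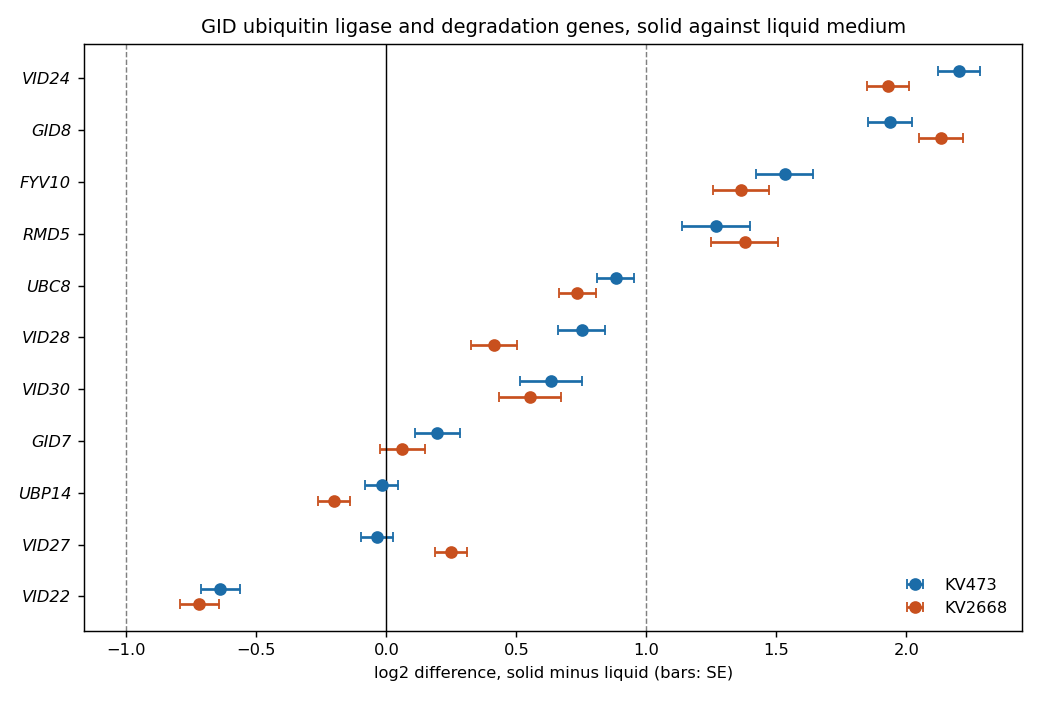
Log2 difference, solid minus liquid medium, of the 11 tested genes of the GID complex and the vacuolar degradation route, in KV473 and KV2668, with SE as bars and dashed lines at a log2 difference of 1 in either direction. *VID24*, *GID8*, *FYV10* and *RMD5* lie beyond 1 in both strains and *VID22* below 0.

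Over the 18 arrays *ICL1* was most like *TED1* (Pearson correlation 0.963), *AFI1* (0.956), *SMC1* (0.955), *OMA1* (0.951) and *SLI15* (0.95) among all tested probe sets. *MLS1* came next, at 0.949, and *SFC1* at 0.94, while *MDH2*, *JEN1*, *FBP1*, *ADY2* and *ACS1* lay between 0.835 and 0.597, *PCK1* at 0.21 and *CIT2* at −0.53. Among pairs of members *FBP1* and *ADY2* were the most alike (0.959) and *FBP1* and *CIT2* the most opposed (−0.881). The points share arrays, strains and media, and these values are descriptions of 18 arrays.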

How the data were processed

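RNA from colonies and liquid cultures was hybridised to 18 Affymetrix Yeast Genome 2.0 arrays. Log2 expression values of 7686 probe sets, made by the authors with RMA (no version found in the sources), were taken as deposited. All columns matched a labelled sample (0 unassigned). Platform annotation gave 1 symbol to 6145 probe sets, several to 1 and none to 1540. The array covers budding yeast (5469 probe sets with 1 symbol) and the fission yeast *S. pombe* (676, of which pck1 was kept out of the members). Background was set on each array at the percentile 95 of the fission yeast signals, and the 5424 budding yeast probe sets that exceeded it in 3 or more arrays entered the tests. Array data have no read depth, so that the number of arrays limits the precision.

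Differences were fitted with limma 3.58.1 (lmFit, eBayes; R 4.3.3), with Benjamini-Hochberg adjustment over the 5424 probe sets, checked on simulated data. KV473 and KV2668 were fitted in 4 groups of strain and medium (12 arrays, 8 residual degrees of freedom). Comparisons with KV63 or KV68 were fitted in 6 groups (18 arrays, 12 residual degrees of freedom). A probe set passed at an adjusted p under 0.05 and was called at a log2 difference over 1 as well. The background filter, scaling, chromosome centring, pairing, moderation, array weights, the arrays in the fit and each single array were varied.

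Members and lists were chosen with earlier results of these data known. The genes named are the 10 members, *FLO11*, up to 4 called genes of each list with the largest differences, the 5 probe sets most like *ICL1* and paralogs of members. Outside this rule, *MIG1*, *CAT8*, *ADR1* and *SIP4* are named for their roles, after their values were seen. Same-numbered KV63 and KV68 arrays had correlated deviations from their group means (0.402, 0.27 and 0.52), and the labels give no pairing. For replicates 1 and 2 a differently numbered array correlated slightly more (0.443 and 0.296), so that the values do not show a pairing by number. For the other pairs of groups not every correlation was over 0.1.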

Additional observations from a re-analysis of the deposited data

Results flagged for a closer look

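The response to the medium differed between KV473 and KV2668 for 4 of the 10 genes by limma's test of the interaction, the difference of KV2668 minus KV473 on solid medium less that in liquid medium. It was −0.46 for *MLS1*, 0.37 for *CIT2*, −0.64 for *JEN1* and 0.51 for *MDH2*. In the fit of all 18 arrays those of *MLS1* (adjusted p = 0.218) and *CIT2* (adjusted p = 0.113) did not pass. The difference between strains was unlike in the pairs KV2668 and KV473 and KV68 and KV63 for 3 genes, with −0.32 for *PCK1*, 0.64 for *FBP1* and 0.50 for *MDH2*. With chromosomes centred, *PCK1* (−0.18, adjusted p = 0.136) and *FBP1* (−0.16, adjusted p = 0.679) did not pass there. *FBP1* did not pass without any 1 of 7 arrays, and *MDH2* without any 1 of 8. At an adjusted p under 0.05 the interaction passed for 24.8% of all probe sets with a positive and 27% with a negative value, and the difference between pairs passed for 14.5% and 11.1%.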

How the results depend on the processing

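No member was called in a comparison between strains under any array left out (0 to 0). The members called lower on solid medium numbered 2 to 3 in KV473 and 1 to 3 in KV2668 over the arrays left out. The 1 came without KV2668 solid replicate 1, where *MLS1* was −0.98 and *FBP1* −0.94, and the 3 in KV473 without KV473 solid or liquid replicate 3, where *FBP1* was −1.07 and −1.02. The number for KV2668 was also 1 with quantile normalisation and with chromosomes centred, where *MLS1* and *FBP1* lay between −0.91 and −0.97, and *FBP1* was −0.97 with array weights. With no limit on the fold, members passing (higher and lower) numbered 3 and 4 for KV2668 minus KV473 on solid and 2 and 1 in liquid medium, 1 and 7 for the medium in KV473, 1 and 9 in KV2668, 2 and 2 for the interaction, 1 and 2 for KV68 minus KV2668 and 2 and 1 for the difference between pairs. Chromosome centring moved the median of all probe sets from −0.160 to −0.010 in KV473 and from −0.104 to 0.014 in KV2668 for the medium, and the members that had passed kept their direction there.

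Directions were followed over all settings for differences that passed in at least 1 of them. *FBP1* turned around with chromosomes centred (−0.38 on solid, −0.30 in liquid, 0.18 for KV68 minus KV2668, −0.16 between pairs). The rest had not passed in the main fit. For KV68 minus KV63, *JEN1* and *ADY2* turned around with array weights (0.067 and 0.54). *ADY2* also did so without KV63 replicate 3 (0.09) and without KV68 replicate 3 (0.39). For KV68 minus KV2668, *JEN1* did so with chromosomes centred (−0.060) or without KV68 replicate 1 (−0.057, with 0.159 as the highest value over the arrays left out). *ACS1* did so there with weights (0.19) or without KV68 replicate 3 (0.20, with −0.45 as the lowest), and *ADY2* with weights (0.018). Between pairs, *JEN1* did so with chromosomes centred (0.036) or without KV68 replicate 1 (0.031, with −0.19 as the lowest). *ADY2* passed at 0.54 and 0.39 (adjusted p = 0.000703 and 0.0476), and *ACS1* at 0.19 (adjusted p = 0.0382). The cause was not tested, apart from the shift of chromosome XII given for *FBP1*.

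Over all probe sets, calls (higher and lower) of 236 and 97 for KV2668 minus KV473 on solid medium were 36 and 28 with strains of the same label pooled, in which *FBP1* (0.09), *MDH2* (0.15), *PCK1* (−0.05), *ADY2* (0.13) and *SFC1* (−0.23) no longer passed, nor did *FBP1* in liquid medium (adjusted p = 0.136). Calls higher were 108 with chromosomes centred, 107 against 244 in liquid medium, and calls lower in KV473 on solid medium 205 against 362. For KV68 minus KV63 (12 and 12) calls higher were 7 with quantile normalisation and 22 with weights, and the 6 arrays alone gave 0 and 2. Without single arrays they were 7 to 42 higher and 6 to 25 lower, both highest without a KV68 array. For KV68 minus KV2668 (82 and 201) calls lower were 82 with chromosomes centred, and calls higher 136 with weights and 39 with the compared arrays alone. For the difference between pairs (194 and 56) they were 76 higher with chromosomes centred and 125 lower with weights. With no limit on the fold they were 1620 and 1639 for KV2668 minus KV473 on solid, 1552 and 1319 in liquid medium, 1733 and 2668 for the medium in KV473, 1865 and 2489 in KV2668, 1345 and 1464 for the interaction, 305 and 270 for KV68 minus KV63, 1150 and 1162 for KV68 minus KV2668 and 788 and 601 between pairs.

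The replicate number as a block left the difference of *FBP1* between pairs short of the threshold (0.64, adjusted p = 0.0628) and changed no other member's side of it in the fits of 12 and 18 arrays. The differences of *FBP1* and *MDH2* between pairs did not pass with the compared groups alone (adjusted p = 0.127 and 0.131). With 3 arrays a group, small differences are measured with little precision.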
